A study of Mus musculus with 3 samples.

Results

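The 47 genes described here encode the machinery that takes messenger RNA apart: the deadenylases with the poly(A) binding and TOB proteins that guide them, the decapping complex, the 5′ to 3′ exonucleases, the RNA exosome with its SKI cofactors, and the nonsense-mediated decay factors. They were chosen by gene symbol from a fixed list of these complexes, and all 47 were found among the 55536 annotated genes of the series. The series profiled cytosol of primary macrophages, grown from the bone marrow of C57BL/6J mice, by total RNA sequencing after removal of ribosomal RNA. The cells had received 100 ng/ml of lipid A, the Toll-like receptor 4 ligand within bacterial lipopolysaccharide, for 60 min. There is 1 group of 3 libraries, labelled as biological replicates 1, 2 and 3. Sex and age were not recorded, and untreated cells and the nuclear fraction were not analysed here. The values are therefore levels in stimulated cytosol, not responses to lipid A.

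Most mammalian mRNAs are degraded from the tail inwards. PAN2-PAN3 and then the CCR4-NOT complex shorten the poly(A) tail, after which the DCP2 enzyme removes the cap and XRN1 digests the body from its 5′ end, while the exosome can digest it from the 3′ end. In macrophages this machinery is recruited by tristetraprolin and Roquin to the AU-rich or hairpin-bearing messages of cytokines, and so limits how long those messages last after Toll-like receptor signalling.

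The libraries held 64110863, 72057046 and 69345880 expected counts in replicates 1, 2 and 3, and the decay genes took 0.312 to 0.317% of the counts assigned to annotated genes. A single short RNA, the signal recognition particle RNA 7SL, took 57.1, 69.6 and 62.2% of TPM (a length-scaled transcript abundance) in these libraries, so every other TPM is compressed to an unequal degree. All 47 genes had their highest TPM in replicate 1, the library with the lowest 7SL share. By CPM (counts scaled by library size with TMM normalisation, without length), the highest library was replicate 1 for 12 genes, replicate 2 for 21 and replicate 3 for 14. Macrophage markers were present, with 10 of 10 at 1 TPM or more and sums of 9674, 4894 and 5997 TPM. Of the 8 neutrophil markers 5 reached 1 TPM, with sums of 41.1 to 56.0 TPM, and no T, B, erythroid or stromal marker did. RNAs retained in nuclei, led by Malat1, summed to 465, 135 and 361 TPM, lowest in replicate 2, and their part in the values below was not tested. In bulk RNA, fewer cells of a type and less RNA per cell cannot be told apart.

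All 47 decay genes averaged 1 TPM or more, most at modest levels, with Pabpc1, Pnrc1, Ddx6 and Lsm14a well above the rest. The median gene of the 47 had a mean of 6.44 TPM, against 7.24 TPM over all 9123 protein-coding genes with a mean of at least 1 TPM. Each gene's level was set against the library's own median protein-coding gene, at 9.08, 5.76 and 6.86 TPM in replicates 1, 2 and 3. A gene was called above or below when limma's test against a 2-fold band passed an adjusted p of 0.05 over all 9123 genes. Of the decay genes 4 were above (8.51%), against 26.3% of all tested genes, and 11 were below (23.4%), against 24.5% of all tested genes. The share below was near that of all genes. The other 32 were not called. The 4 above were the 4 genes just named. The 11 below were Pan2, Dcp1b, Edc3, Lsm1, Exosc2, Exosc4, Exosc7, Dis3, Ttc37, Smg5 and Smg6. These counts depend on which genes set the median. Without the 1 TPM filter 25 decay genes were above (53.2%, against 35.8% of all genes) and 0 below (against 39.3%). Smg5, Smg6 and Exosc7 then lay slightly above the median gene. With TPM rescaled to the nuclear-encoded protein-coding total 8 were above and 9 below, and Smg5 and Smg6 were no longer called. Over all genes tested with rescaled TPM 3012 were above and 3070 below, against 2403 and 2236 in the main fit. More genes pass the 1 TPM filter with rescaled TPM. These counts are therefore not shares of the same 9123 genes, and the rescaled shares are not given here.

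**Figure D1:**
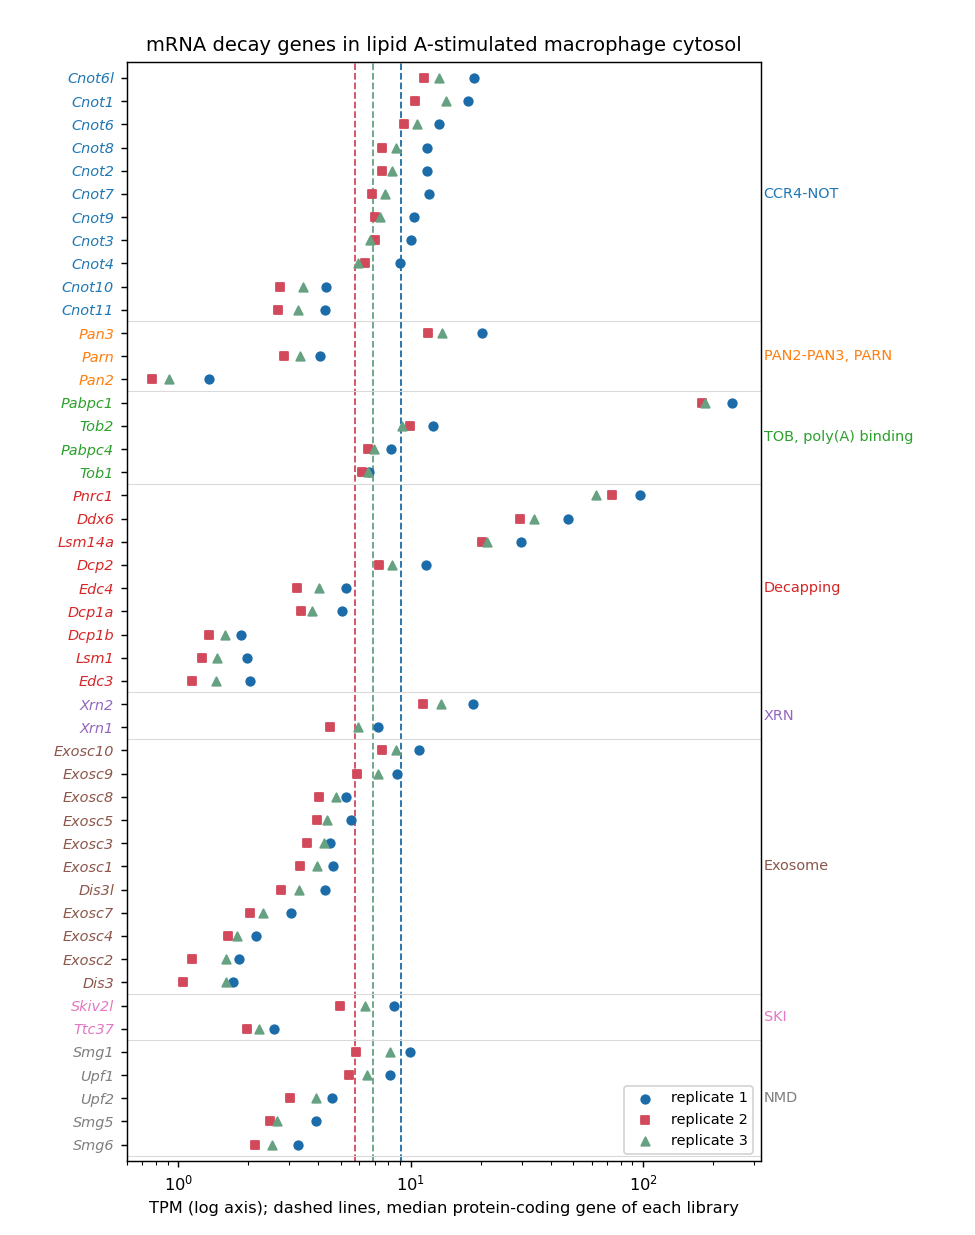
TPM of the 47 decay genes (log axis) in each of the 3 libraries, ordered by role and then by mean TPM. Dashed lines mark the median tested protein-coding gene of each library (9.08, 5.76 and 6.86 TPM). Pabpc1 stands alone at 179.7 to 241 TPM, and Pan2 is the lowest gene, at 0.77 to 1.35 TPM.

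The 11 CCR4-NOT genes ranged from 3.40 TPM for Cnot11 to 14.5 TPM for Cnot6l on average, a 4.25-fold span, against 6.19-fold for the 11 exosome genes. By limma 0 of 11 were called above and 0 below, against 26.3 and 24.5% of all tested genes. At an unadjusted level none of the 11 passed either, the smallest raw p being 0.144 for Cnot11. The highest, Cnot6l, encodes a deadenylase of the CCR4 type and had 18.7, 11.4 and 13.3 TPM in replicates 1, 2 and 3. The scaffold gene Cnot1, on which the other subunits assemble, followed at 17.6, 10.4 and 14.2 TPM. Both lay close to the upper edge of the 2-fold band, at 0.98 ± 0.05 and 0.94 ± 0.06 (SE, n = 3) on the log2 scale.

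The complex carries a deadenylase of each of 2 types, and each type has a pair of paralogs. Cnot7 and Cnot8 encode the CAF1-type enzymes. Cnot7 had 12, 6.84 and 7.79 TPM, and Cnot8 had 11.8, 7.49 and 8.62 TPM. The paralogs were nearly level, Cnot7 being higher in 1 of 3 libraries, with a difference of -0.08 ± 0.10 (SD, n = 3) on the log2(TPM + 0.1) scale. The second set of transcript estimates, in the format that kallisto writes, put Cnot7 higher, by 0.15 ± 0.23, so the order of the pair is not settled. Among the CCR4-type enzymes Cnot6l exceeded Cnot6, which had 13.3, 9.40 and 10.6 TPM, in all 3 libraries, by 0.36 ± 0.11 (SD). An exact 2-sided sign-flip permutation test gave p = 0.25 for Cnot6l against Cnot6, the smallest that 3 libraries allow. Short forms with few counts held part of the Cnot6l TPM. Cnot6l-206, of 421 bases, took 12.4% on 36.9 to 54.8 counts, and Cnot6l-204, of 526 bases, took 5.26% on 20.6 to 42.0 counts. The order of this pair, and the rank of Cnot6l above Cnot1, were not tested without these forms.

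The remaining subunits fell into a middle and a low set. Cnot2 and Cnot3, which form the NOT module, averaged 9.22 ± 2.24 and 7.93 ± 1.85 TPM (SD, n = 3). Cnot9, which binds effector proteins such as the GW182 family, averaged 8.27 ± 1.83 TPM. Cnot4, a RING-type ubiquitin ligase that is only loosely tied to the mammalian complex, averaged 7.09 ± 1.63 TPM. The low set was Cnot10 and Cnot11, partners in the module at the N terminus of CNOT1. Cnot10 had 4.30, 2.75 and 3.43 TPM, and Cnot11 had 4.27, 2.68 and 3.26 TPM. The members of this module thus had almost the same level in every library, at the lower edge of the band (-1.03 ± 0.06 and -1.07 ± 0.06, SE, not called). With the second quantifier both were called below, at -1.37 and -1.50 (limma adjusted p = 0.0015 and 0.00029).

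Transcript use was mixed in several of these genes. IsoPct, the percent of a gene's TPM given to a transcript, put the leading transcript below 50% on average in Cnot2 (47.8%), Cnot3 (42.2%) and Cnot4 (42.8%). For Cnot3 that transcript, Cnot3-201, took 37.6, 37.1 and 51.8% in replicates 1, 2 and 3, and retained-intron transcripts took 35.9% by IsoPct but 22.4% in the second set. Cnot3 shares 21.6% of its 50-base windows with the processed pseudogene Gm9207, which had under 0.05 TPM, and 12.1% with the opposite strand of its neighbour Leng1, at 3.11 to 4.82 TPM. The sources used here do not say whether counting used strand, so its value is less certain than the others. For Cnot6l the quantifiers named different leading transcripts, Cnot6l-210 with 51.4% by IsoPct and Cnot6l-202 with 40.1% in the second set.

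The Cnot1 transcripts differ by short in-frame segments, which are printed because they are present in its leading transcript, Cnot1-202, and absent from the next one, Cnot1-203. The segments lie on the minus strand at chr8:95754965-95754979 and chr8:95774723-95774728 of GRCm38, from the GENCODE M21 transcripts.
Cnot1 segment of 15 bases: gtaagatgaaacctt
Cnot1 segment of 6 bases: acacag
The 15-base segment is worth 5 codons and the 6-base segment 2. Among transcripts that span the site, the 15-base segment was missing from 21.6 ± 1.12% (SD, n = 3) by IsoPct and from 20.3 ± 0.96% in the second set. The 6-base segment was missing from 22.8 ± 0.26% and 22.5 ± 0.97%. Both quantifiers and all 3 libraries thus put the shorter forms near the same share. These segments, and those of Pan2, Pabpc4, Edc3 and Dis3 below, were chosen after the transcript values had been seen.

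The other deadenylases were unequal partners. PAN2 is the nuclease and PAN3 the adaptor that brings it to the tail-bound poly(A) binding protein. Pan2 was the lowest of the 47 genes, with 1.35, 0.77 and 0.91 TPM, and its partner Pan3 had 20.3, 11.9 and 13.7 TPM. Pan2 therefore lay at 0.0659 ± 0.00103 of Pan3, a difference of -3.79 ± 0.02 (SD) on the log2 scale, and of -3.66 ± 0.10 with the second quantifier. Pan2 was called below the median gene, at -2.73 ± 0.09 (SE, limma adjusted p = 3.8e-06), and Pan3 was not called, at 1.06 ± 0.06 (SE, adjusted p = 0.35). Parn, a deadenylase also known for trimming small RNAs, had 4.09, 2.85 and 3.33 TPM, and was not called.

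Pan2 transcripts divided over a 27-base coding segment at chr10:128315487-128315513 (GRCm38, plus strand, GENCODE M21), printed because the leading transcript lacks it.
Pan2 segment of 27 bases: cttagcagcctgggtgccccctcacag
The segment is 9 codons long. It was missing from 69.4, 55.6 and 72.9% of Pan2 TPM over the site in replicates 1, 2 and 3 by IsoPct, and from 60.4 ± 7.98% (SD) in the second set. Replicate 2 was lowest by both. Only 475 to 510 counts per library stand behind the gene. Pan3 was the most divided of all 47 genes, with 23 annotated transcripts and a leading one, Pan3-201, at 24.6, 23.8 and 21.6%.

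Pabpc1 was the highest decay gene by a wide margin. It encodes the main cytoplasmic poly(A) binding protein, which coats the tail, promotes translation and stimulates CCR4-NOT. It had 241, 179.7 and 185 TPM in replicates 1, 2 and 3, or 26.5, 31.2 and 27.0 times the library's median gene. Its level was 4.80 ± 0.08 (SE, n = 3) on the log2 scale, called above with a limma adjusted p of 2.1e-07. The gene (ENSMUSG00000022283.15) is on the minus strand of chromosome 15, from 36595661 to 36609668 in GRCm38. Its processed pseudogenes share 20.7% of its 50-base windows, but the 3 of them together had 0.237 TPM. Without Pabpc1 the decay genes held 0.152, 0.156 and 0.154% of nuclear-encoded protein-coding TPM, and with it 0.226, 0.239 and 0.233%.

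The related gene Pabpc4 was far lower, with 8.20, 6.52 and 6.95 TPM. Pabpc1 exceeded it 27.9 ± 1.37 times (SD) and in all 3 libraries (exact sign-flip permutation p = 0.25, the smallest possible). Pabpc4 shares 74.8% of its 50-base windows with 12 other genes, above all the pseudogene Gm10110. Those 12 together had 0.0867 TPM, and the Pabpc4 value is uncertain. Tob1 and Tob2 encode adaptors that link poly(A) binding protein to the CAF1-type deadenylases. Tob1 had 6.60, 6.19 and 6.52 TPM and Tob2 had 12.5, 9.95 and 9.14 TPM. Tob1 was the lower paralog in all 3 libraries, with a difference of -0.69 ± 0.22 on the log2 scale (SD), and neither was called. The difference was largest in replicate 1, at -0.91, and smallest in replicate 3, at -0.48.

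Pabpc4 transcripts differ by an 87-base coding exon at chr4:123295750-123295836 (GRCm38, plus strand, GENCODE M21), printed because the quantifiers divide on it.
Pabpc4 exon of 87 bases: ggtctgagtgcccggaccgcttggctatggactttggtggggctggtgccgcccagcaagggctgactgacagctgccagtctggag
The exon is 29 codons long. By IsoPct it was missing from 21.4, 22.4 and 27.2% of Pabpc4 TPM over the site, and in the second set from 41.4, 52.3 and 52.3%. In every library the second set gave the larger share, and there Pabpc4-204, which lacks the exon, was the leading transcript, against Pabpc4-202 by IsoPct. The share of exon skipping is therefore not settled by these tables.

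**Figure D2:**
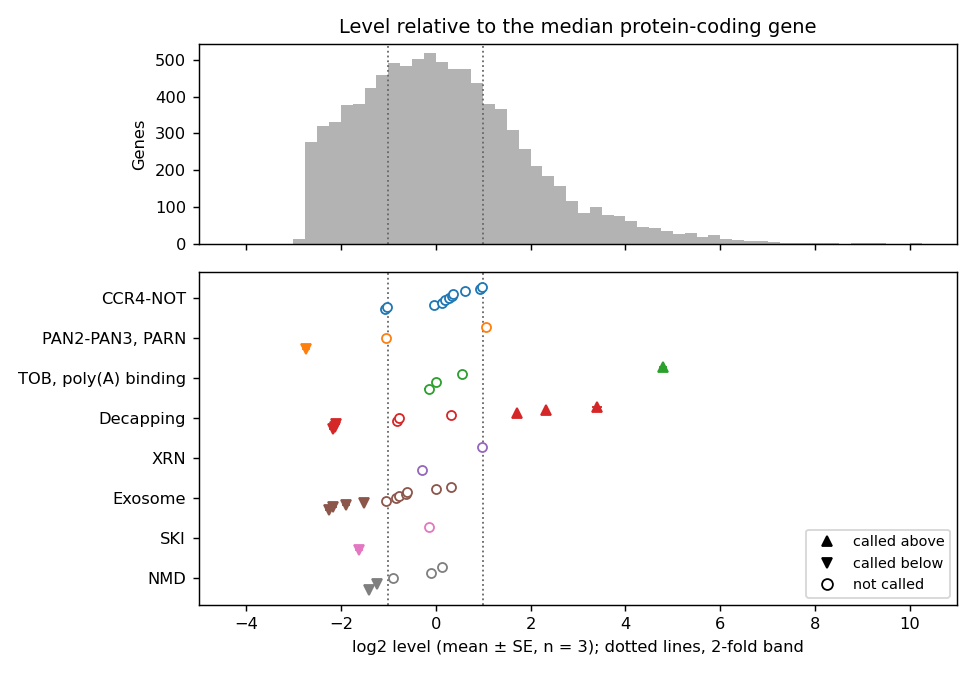
Level of the 9123 tested protein-coding genes (histogram, top) and of the 47 decay genes by role (bottom), as the log2 difference from the library's median gene, mean ± SE over 3 libraries. Dotted lines mark the 2-fold band. The 4 genes called above are Pabpc1 and 3 decapping genes, and the 11 called below are spread over 5 roles.

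Decapping genes had the widest span of any role, 50.3-fold between the lowest and the highest mean. Of the 9 decapping genes 3 were above (33.3%, against 26.3% of all tested genes) and 3 below (33.3%, against 24.5%). The difference in share was not tested. Ddx6, an RNA helicase that ties CCR4-NOT to decapping and to translational repression, had 47.6, 29.5 and 33.9 TPM. Lsm14a, a P-body protein that binds DDX6, had 29.7, 20.3 and 21.4 TPM. Pnrc1, a nuclear receptor coregulator that binds decapping proteins in human cells, had 96.6, 73.3 and 62.7 TPM and was the second highest of the 47. Their levels were 2.33 ± 0.06, 1.71 ± 0.06 and 3.41 ± 0.10 (SE), all called above by limma (adjusted p = 2.1e-06, 4.2e-05 and 1.6e-06). Pnrc1 (ENSMUSG00000040128.9) is on the minus strand of chromosome 4, from 33245423 to 33290163 in GRCm38.

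The decapping enzyme itself was unexceptional. Dcp2, which cuts the cap, had 11.6, 7.33 and 8.27 TPM, close to the median gene at 0.32 ± 0.05 (SE). Its partner genes were lower. The activator gene Dcp1a had 5.05, 3.36 and 3.75 TPM, and its paralog Dcp1b had 1.86, 1.35 and 1.59 TPM. Dcp1a exceeded Dcp1b in all 3 libraries, 2.52 ± 0.18 times (SD). Dcp1b was called below the median gene, at -2.10 ± 0.08 (SE), and Dcp1a was not called, at -0.82 ± 0.06.

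Both enhancers of decapping were low, Edc3 more so. Edc3, a bridge between decapping proteins in P-bodies, had 2.04, 1.14 and 1.45 TPM, and Edc4, the scaffold that joins DCP1 to DCP2, had 5.25, 3.24 and 4.02 TPM. Edc3 was at 0.367 ± 0.019 (SD) of Edc4, and was called below the median gene at -2.17 ± 0.08 (SE), while Edc4 was not, at -0.78 ± 0.05 (SE). Lsm1, the subunit that sets the cytoplasmic LSM ring apart from the spliceosomal ring, had 1.98, 1.26 and 1.47 TPM and was below, at -2.13 ± 0.07 (SE). The Edc3 gene overlaps its neighbour Clk3 on the opposite strand over 21.1% of its windows, and Clk3 had 16.2, 10.5 and 11.5 TPM. With strand use unknown, part of the Edc3 count could belong to Clk3.

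A large share of the Edc3 signal was placed on a transcript annotated for nonsense-mediated decay. Edc3-202 skips a 320-base coding exon at chr9:57715948-57716267 (GRCm38, plus strand), and its reading frame then closes 7 bases past the junction. The sequence is printed from 21 bases before that junction to the stop codon, which is in capitals (GENCODE M21, spanning chr9:57713541-57727195).
Edc3-202 junction to stop: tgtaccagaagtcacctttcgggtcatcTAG
The open frame of Edc3-202 is 57 codons, against 508 in Edc3-201. The skipped form took 37.9, 39.4 and 39.6% of Edc3 TPM over the site by IsoPct and 42.3, 36.6 and 39.8% in the second set. Both estimates lay in the same range. Another short form needs care: Dcp2-202, of 398 bases, took 34.9% of Dcp2 TPM on 66.7 to 72.0 counts, while Dcp2-201, of 8616 bases, had 5606 to 6003 counts.

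The 5′ to 3′ exonucleases were moderately expressed. Xrn1, the cytoplasmic enzyme that digests decapped mRNA, had 7.26, 4.51 and 5.95 TPM. Xrn2, the mainly nuclear enzyme that acts in transcription termination, had 18.5, 11.3 and 13.5 TPM. Xrn1 was lower in all 3 libraries, at 0.411 ± 0.026 (SD) of Xrn2, a log2 difference of -1.27 ± 0.09. Neither was called, with Xrn2 at 0.98 ± 0.05 and Xrn1 at -0.29 ± 0.06 (SE).

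The exosome genes had a median of 4.49, 3.35 and 3.94 TPM in replicates 1, 2 and 3, close to the medians of the nonsense-mediated decay genes (4.57, 3.02 and 3.93 TPM). Of 11 exosome genes 0 were above, against 26.3% of all tested genes, 4 were below (36.4%), against 24.5%, and 7 were not called. The difference in share was not tested. In the cap of the exosome ring, which binds the entering RNA, Exosc1 and Exosc3 averaged 3.97 ± 0.64 and 4.11 ± 0.46 TPM (SD), while Exosc2 had 1.83, 1.14 and 1.61 TPM and was below. In the barrel below it, Exosc5, Exosc8 and Exosc9 averaged 4.62 ± 0.83, 4.69 ± 0.63 and 7.26 ± 1.42 TPM. The barrel subunits Exosc4, with 2.16, 1.64 and 1.79 TPM, and Exosc7, with 3.04, 2.03 and 2.32 TPM, were below. The limma adjusted p values were 1.6e-05, 5.1e-05 and 0.00024 for Exosc2, Exosc4 and Exosc7. Across the 8 cap and barrel genes measured, mean TPM ran from 1.53 for Exosc2 to 7.26 for Exosc9.

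Some of these values carry overlaps with other genes. Exosc9 shares 18.2% of its windows with the opposite strand of Ccna2, at 0.83 to 2.90 TPM. Exosc4 shares 11.8% with the opposite strands of 147 genes, chiefly Oplah, at 0.39 to 0.63 TPM, and 1.03% with the same strand of 201 genes. Those sets of genes summed to 1276 and 1586 TPM on average. Exosc2 shares 3.24% on the same strand and 3.67% on the opposite strand, with genes that summed to 483.5 and 581 TPM. Dis3 shares 6.02% with opposite strands, chiefly that of Pibf1, at 2.06 to 3.57 TPM. The effect of these overlaps on the values was not tested. The sixth barrel gene, Exosc6, is not among the 47, and was listed at 0 counts in all 3 libraries. Its only transcript, of 1326 bases at chr8:111056339-111057664 (GRCm38), is contained whole in bases 4425 to 5750 of the longer transcript Aars-201, to which 4635, 4991 and 5388 counts were assigned. Reads from Exosc6 and Aars cannot be told apart there, and the 0 does not show that Exosc6 is absent.

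The catalytic subunits gave a clear order. Exosc10, a mainly nuclear exonuclease, was the highest exosome gene at 10.9, 7.51 and 8.61 TPM. Dis3l, the cytoplasmic catalytic subunit, had 4.26, 2.76 and 3.30 TPM, and was not called, at -1.05 ± 0.06 (SE). Dis3, the mainly nuclear one, had 1.72, 1.05 and 1.60 TPM and was below, at -2.24 ± 0.09 (SE, limma adjusted p = 2.1e-05). Dis3 was at 0.423 ± 0.055 (SD) of Dis3l, and lower in all 3 libraries, with a log2 difference of -1.19 ± 0.17.

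Dis3 also had the largest share of all 47 genes in transcripts annotated for nonsense-mediated decay, 42.7% by IsoPct and 62.8% in the second set. The main one, Dis3-205, skips an 85-base coding exon at chr14:99085874-99085958 (GRCm38, minus strand, GENCODE M21). Both the exon and the frame that follows its loss are printed, with the stop codon in capitals, because the length of the exon is not a whole number of codons.
Dis3 exon of 85 bases: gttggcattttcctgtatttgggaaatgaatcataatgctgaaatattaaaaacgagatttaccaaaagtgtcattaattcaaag
Dis3-205 junction to stop: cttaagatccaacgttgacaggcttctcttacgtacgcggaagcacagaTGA
The second sequence starts 21 bases before the junction and spans chr14:99084124-99086067. The frame closes 28 bases past the junction, after 566 codons in place of 958. The exon was missing from 39.4, 42.9 and 36.8% of Dis3 TPM over the site in replicates 1, 2 and 3 by IsoPct, and from 56.3, 62.6 and 55.2% in the second set. Replicate 2 was highest by both, and the second set was higher in every library. The counts on Dis3-205 were 165, 185 and 208. Dis3-205 was the leading transcript in the second set, the only case among the 47 where that transcript was not annotated as protein coding.

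The SKI complex feeds RNA into the cytoplasmic exosome. Its helicase gene Skiv2l had 8.44, 4.98 and 6.34 TPM, and its scaffold gene Ttc37 had 2.58, 1.97 and 2.23 TPM. Skiv2l exceeded Ttc37 in all 3 libraries, 2.88 ± 0.37 times (SD). Ttc37 was called below the median gene at -1.62 ± 0.08 (SE, limma adjusted p = 0.00027), and Skiv2l was not called, at -0.14 ± 0.06 (SE).

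The nonsense-mediated decay factors ran from the median downwards. Smg1, the kinase that phosphorylates UPF1, was highest at 9.97, 5.81 and 8.11 TPM. The helicase gene Upf1 had 8.13, 5.43 and 6.47 TPM, and Upf2, which couples it to the exon junction complex, had 4.57, 3.02 and 3.93 TPM, so that Upf1 exceeded Upf2 in all 3 libraries, 1.74 ± 0.08 times (SD). Smg5, an adaptor that brings decay enzymes to phosphorylated UPF1, had 3.91, 2.48 and 2.65 TPM. Smg6, the endonuclease that cuts near the premature stop, had 3.27, 2.14 and 2.53 TPM. Smg5 was slightly above Smg6 in all 3 libraries, by 0.17 ± 0.10 on the log2 scale (SD). Both were called below the median gene, Smg6 at -1.41 ± 0.06 and Smg5 at -1.24 ± 0.06 (SE, limma adjusted p = 0.00059 and 0.010). The Smg5 call was lost without replicate 3 (adjusted p = 0.055) and with a pseudocount of 1 (adjusted p = 0.58).

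**Figure D3:**
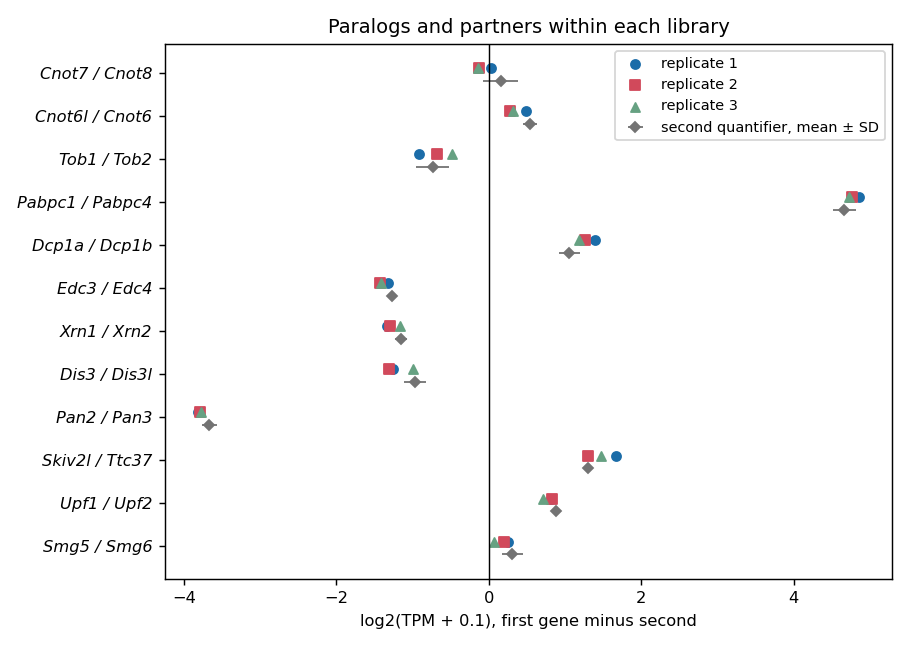
Difference in log2(TPM + 0.1) between 12 pairs of paralogs or partner genes, first gene minus second, in each library (coloured symbols) and as the mean ± SD of the second quantifier (grey diamonds). Pabpc1 over Pabpc4 (4.78) and Pan2 under Pan3 (-3.79) stand apart, and Cnot7 and Cnot8 lie on either side of 0.

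Over the 12 pairs, 11 kept their order in all 3 libraries and with both quantifiers, the exception being Cnot7 and Cnot8. The p of those 11 was 0.25 in the exact permutation test, or 0.273 adjusted over the 12 pairs. No pair could pass 0.05 with 3 libraries. The order of the pairs is therefore a description of these libraries.

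The second quantifier moved the lower calls more than the upper ones. It tested 40 of the 47 genes, since Pan2, Dcp1b, Edc3, Lsm1, Exosc2, Exosc4 and Dis3 fell under a mean of 1 TPM there. It called the same 4 genes above. It called 11 below, of which Exosc7, Ttc37, Smg5 and Smg6 were shared, and the other 7 were Cnot10, Cnot11, Parn, Dcp1a, Edc4, Upf2 and Dis3l. Over all 7720 genes it tested, 24.1% were above and 18.5% below. Its TPM values for the decay genes were lower, with Cnot10 at 1.58 against 3.49 on average. The same 1 TPM filter thus kept fewer genes than the 9123 of the main fit, and the median gene is that of a smaller set. Levels were lower there also for genes called above, with Pabpc1 at 4.38 against 4.80. The part of the filter in the changed calls was not tested.

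The decay genes varied little between libraries. Their median biological coefficient of variation (BCV, edgeR's estimate of the relative spread between libraries beyond counting noise) was 0.0916, against 0.113 over protein-coding genes and 0.122 over all 13026 genes tested. The BCV falls with abundance, so each gene was read beside the trend fitted at its own abundance. Of the 47 genes 4 lay above the trend (8.51%), against 21.5% of all genes. By a chi-square test of the counts 25 of 47 differed between libraries by more than counting noise at an adjusted p of 0.05, against 62.5% of all genes. The lowest BCVs were those of Xrn2, Smg6 and Dis3l, at 0.0816, 0.0823 and 0.0824. Tagwise BCVs are drawn towards the fitted trend, so their order is not that of the observed spread. Xrn2 had 80.7, 77.5 and 78.5 CPM, Smg6 had 24.0, 24.5 and 25.2, and Dis3l had 19.7, 19.9 and 20.2. The largest BCVs, 0.181 for Exosc2, 0.175 for Exosc7 and 0.162 for Exosc4, belonged to genes of 232 to 386 counts per library and were under the trend. None of these genes was called by the chi-square test (adjusted p = 0.095, 0.87 and 0.094). Their BCVs therefore do not show a spread beyond counting noise.

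The 4 genes above the trend were Tob1, Tob2, Pnrc1 and Cnot4. Tob1 had 18.9, 27.8 and 24.6 CPM in replicates 1, 2 and 3, with a BCV of 0.143 against a trend of 0.104. Tob2 had 63.3, 80.0 and 60.8, with a BCV of 0.121. For Pnrc1 the values were 190, 227 and 163, with a BCV of 0.135. All 3 genes were highest in replicate 2, and so was Cnot4, with 38.5, 43.4 and 33.9 CPM and a BCV of 0.110. Pabpc1 was also highest there, with 790, 942 and 796 CPM, but its BCV of 0.120 was under the trend. Replicate 2 was the library with the highest 7SL share and the lowest sum of nuclear-retained RNAs, and the part of either in these values was not tested. Without replicate 2 only Tob1 stayed above the trend.

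**Figure D4:**
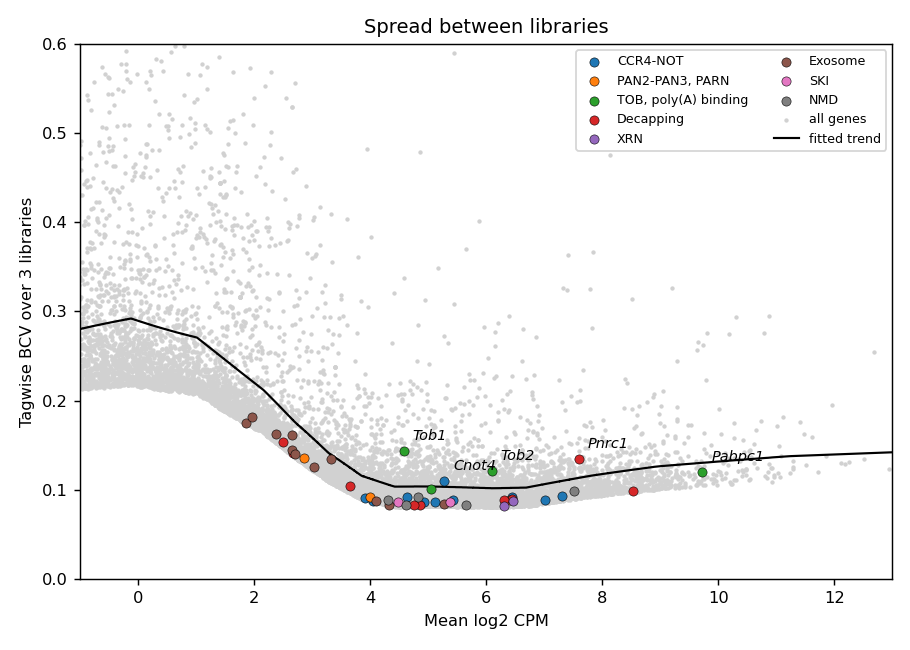
Tagwise BCV over the 3 libraries against mean log2 CPM for 13026 genes (grey), with the decay genes coloured by role and the fitted trend as a line. Tob1, Tob2, Pnrc1 and Cnot4 lie above the line, and the other 43 decay genes lie under it.

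The identity of the leading transcript was stable across libraries, but its share was not always. It was the same in all 3 libraries for 47 of 47 genes, against 92.5% of 9118 tested genes. It was annotated as protein coding in 47 of 47, against 8722 of the 9118. Both quantifiers named the same one for 44 genes (93.6%), against 91.0% of all genes, the exceptions being Cnot6l, Pabpc4 and Dis3. Shares moved most for Pabpc4-202, at 57.6, 44.1 and 33.5% in replicates 1, 2 and 3, and Ttc37-205, at 84.7, 62.2 and 81.0%. The leading transcript took under 50% in 5 genes (10.6%), against 14.7% of all genes. Transcripts annotated for nonsense-mediated decay took a mean of 3.77% of a decay gene's TPM, against 2.67% over all genes, and at least 10% in 6 of the 47 (12.8%), against 7.53% of all genes. The 6 were Dis3, Edc3, Cnot2, Cnot1, Pan3 and Smg6. By the second quantifier 8 genes reached 10% (17.0%, against 8.30% of all genes), these without Smg6 and with Lsm1, Lsm14a and Smg1.

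These shares differed between quantifiers for individual genes. For Smg6 they were 13.1% by IsoPct and 0% in the second set. Lsm1 showed the opposite, at 0% by IsoPct and 30.5% in the second set, all on Lsm1-204, and so did Smg1, at 0 and 13.3%. Lsm14a had 8.79 and 17.6%. For Edc3 and Pan3 they were close, at 37.1 and 36.5% and at 13.7 and 15.1%. Of the 6 genes, Edc3 was the one with the closest estimates.

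**Figure D5:**
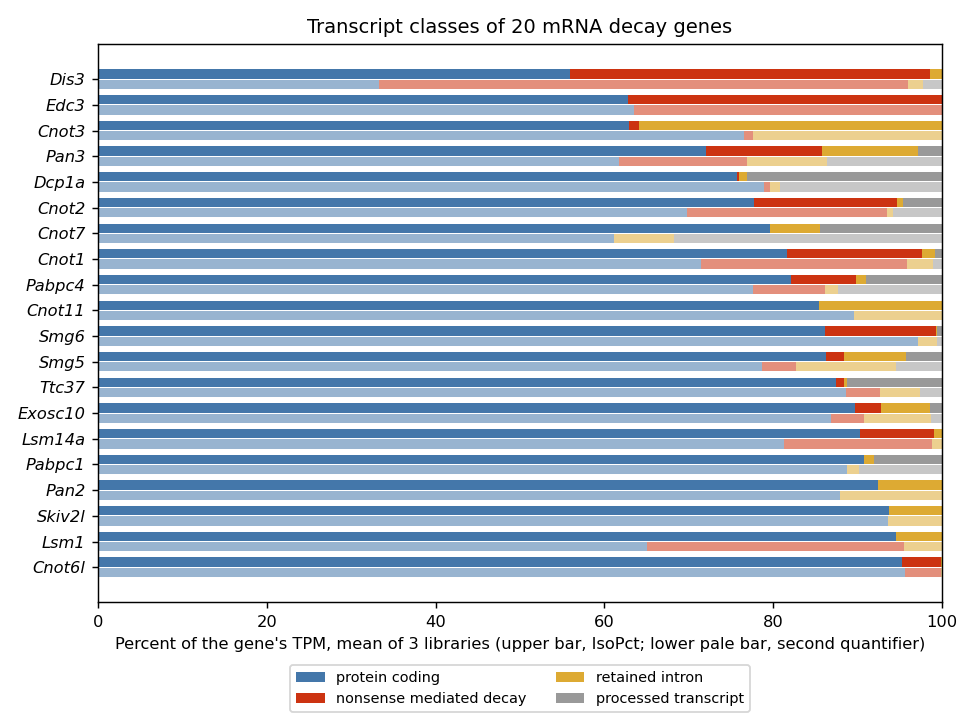
Percent of each gene's TPM in 4 annotated transcript classes, mean of 3 libraries, for the 20 decay genes with the lowest protein-coding share (upper bar, IsoPct; lower pale bar, second quantifier). Dis3 and Edc3 carry the largest nonsense-mediated decay shares by IsoPct, 42.7 and 37.1%, and Lsm1 and Smg6 show such a share by 1 quantifier only.

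Calls were also taken for 50 other genes of the same pathways. Of these 46 were tested, with 7 above (15.2%, against 26.3% of all tested genes), 8 below (17.4%, against 24.5%) and 31 not called, and 4 had a mean under 1 TPM. The 4 highest were Etf1, which encodes the release factor that ends translation, at 39.8 ± 9.19 TPM (SD), Rbm7, of the nuclear exosome targeting complex, at 37.4 ± 8.67 TPM, Tut7, a terminal uridylyltransferase, at 27.7 ± 6.95 TPM, and Eif4a3, the helicase of the exon junction complex, at 26.4 ± 4.33 TPM. Those called below were Nudt16, Pde12, Toe1, Zcchc7, Pelo, Upf3b, Nbas and Tut1, between 1.59 and 3.02 TPM. Those under 1 TPM were Angel1, Btg3, Pabpc4l and Exosc6. The shared LSM ring subunits Lsm2 to Lsm7, named after their values were seen, averaged 4.24 to 14.5 TPM and were not called, while Lsm1 averaged 1.57 ± 0.37 TPM (SD).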

How the data were processed

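Per the file headers, the authors deposited expected counts, TPM and FPKM for genes and for transcripts of each library, under column names that RSEM uses, and IsoPct, each transcript's percent of its gene's TPM. Another deposited transcript table has estimated counts and TPM under column names that kallisto uses and is the second quantifier of the text. Per the deposited description files the build is mm10 with GENCODE M21. The sources used here do not give quantifier versions or strand use. The labels number biological replicates without saying that different mice were used. The p-values cover only the spread among these libraries, which could be technical.

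Features other than annotated genes held 0.0577 to 0.260% of counts and were left out. Levels were log2(TPM + 0.1) minus the library median over protein-coding genes with a mean of at least 1 TPM, tested with limma 3.58.1 (treat, 2-fold band, trended prior, Benjamini-Hochberg). This scale understates differences of low genes. Expected counts were rounded, filtered with filterByExpr and scaled by TMM in edgeR 4.0.16 for BCV and the chi-square test. Pairs were compared by exact sign-flip permutation. Shared windows are 50-base words found in transcripts of other genes. Sequences and reading frames came from the GENCODE M21 transcripts and annotation of GRCm38. Scripts were tested on simulated data.

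Values per library are given for the highest and lowest gene of each role, both genes of each pair, genes called below, and the largest and smallest BCVs. Transcripts are named where quantifiers or libraries disagree or the leading one is under 50%. The genes, lists and rules were chosen with earlier results of these data known. Alternatives were the second quantifier, a pseudocount of 1, no filter, rescaled TPM, FPKM, no trend, DESeq2 1.42.0 size factors and dispersions, and leaving out each replicate.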

Additional observations from a re-analysis of the deposited data

How the results depend on the processing

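With 1 group of 3 libraries the level calls rest on where the median gene lies. Without a filter on low values, which adds unexpressed genes and so lowers the median gene, 25 decay genes were above (53.2%, against 35.8% of 15088 genes) and 0 below by limma (0 also at an unadjusted p under 0.05), with 5403 genes above and 5929 below in all. There Smg5, Exosc7 and Smg6 changed sign, to 0.33, 0.059 and 0.16. With TPM rescaled to the nuclear-encoded protein-coding total 8 decay genes were above, adding Xrn2, Pan3, Cnot6l and Cnot1. Smg5 and Smg6 were then no longer called below. More genes pass the filter with rescaled TPM, and 3012 genes were above and 3070 below in all. The number tested was then larger than the 9123 genes of the main fit. The second quantifier called 1427 of its 7720 tested genes below, and turned Cnot7 minus Cnot8 to 0.15. A pseudocount of 1 ended the Smg5 call alone, and without a trend in the prior all 47 kept theirs.

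Leaving out each replicate gave 4 decay genes above every time and 10 to 11 below. Over all genes 2252 to 2381 were then above and 2062 to 2189 below, against 2403 and 2236 in the main fit. Pan2 fell under 1 TPM without replicate 1, and Smg5 was lost without replicate 3. The number of BCVs above the trend ranged from 1 to 5, with 1 (Tob1) without replicate 2, and chi-square calls from 17 to 22. The shares of all genes that go with these BCV and chi-square counts are not given here. With DESeq2 gene-wise dispersions the median BCV of the decay genes was 0.0491, against 0.0916 in the main fit. The gene-wise values are not drawn towards a trend as the tagwise BCVs are, so these medians are unlike measures. The gene-wise median over all genes is not given here. The causes of the other changes were not tested. No paired analysis was possible because the series has 1 group.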
